A study of Mus musculus with 24 samples.

Results

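The mitotic cyclins and kinases are 9 genes whose products drive cells into and through mitosis: Cdk1, the cyclins Ccna2, Ccnb1 and Ccnb2, the kinases Aurka, Aurkb, Plk1 and Pbk, and the transcription factor Foxm1. They were chosen by symbol, and each matched 1 of the 27297 gene entries of a table of unique molecular identifiers (UMIs, 1 per captured transcript molecule) from single mouse haematopoietic stem cells (HSCs). Plk1 shares its entry with Dctn5, a dynactin subunit gene whose annotated span does not overlap it, and Foxm1 shares its entry with 4933413G19Rik (Tex52), which it overlaps in the annotation. Reads of the named genes cannot be told apart in these 2 entries, so both are uncertain, and sums over the members are also given for the 8 members without Plk1.

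The cells were bone marrow HSCs, gated as lineage-negative, Sca-1 and Kit positive (LSK), CD150+ and CD48-, of the mouse strain -60/DR5-TA-RA-CFP, whose cyan fluorescent protein (CFP) reporter responds to retinoic acid; all groups compared here carry it. Single cells of mixed CFP brightness were index sorted, so that scatter and CFP were recorded for each well. CFP bright means the top 20% of a plate's cells by CFP, CFP dim the bottom 20% and intermediate those between (286, 286 and 858 cells), which are the fractions that the labels give for sorted pools. The record also puts each cell in 1 of 10 map groups whose meaning is not stated and which may rest on expression, so that levels by group are a description without a test; group 1, with 10 cells, was left aside. The table pools 8 labelled batches with no map to wells or animals, and the 4 sort plates of the record (plates 2, 3, 4 and 5, with 356, 345, 361 and 368 cells) served as technical replicates, so that SDs and p-values describe the spread between plates and say nothing of animals.

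The 1430 recorded cells held 511 to 6026 UMIs (median 1265), and plates held 483734 to 563679 UMIs. Among genes of the gate, Kit had 671 UMIs in 451 cells, Ly6a (Sca-1) 90 in 79, Slamf1 (CD150) 41 in 36 and Cd48 1 in 1 cell. Hlf, an HSC transcription factor outside the gate, had 761 in 513 cells. Plate 2 stood lowest for the 9 members summed in groups 8, 9 and 10 and in both the bright and the dim fraction. Bright cells were also deeper, with a median of 1830 ± 118 UMIs per cell in bright and 1091 ± 109 in dim cells (mean of the plate medians ± SD, n = 4 plates), so levels are given per 10000 UMIs and checked in cells thinned to equal depth. Intervals are 95% exact intervals and cover counting error only.

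As background, cyclin A and B proteins bind CDK1 and switch on the kinase that opens mitosis, while the Aurora and Polo-like kinases act on centrosomes, kinetochores and the cleavage plane. Their transcripts build up towards mitosis and are low in resting cells, and HSCs are mostly quiescent. Many such promoters carry a cell-cycle genes homology region (CHR), bound by the DREAM complex in quiescence and by B-MYB and FOXM1 complexes towards mitosis, together with CCAAT boxes, bound by NF-Y.

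Promoters are shown for the 5 members with an entry in the RefSeq promoter table (GRCm38.p6), whatever their level in these cells. Each line gives 150 bases, from 100 before to 50 after the start, written 5′ to 3′ on the gene's strand, with CHR (TTTGAA or TTCGAA, either strand) and CCAAT boxes (CCAAT, or ATTGG where the box lies on the opposite strand) in capitals.
Aurka (chr2:172370521-172370670, minus strand): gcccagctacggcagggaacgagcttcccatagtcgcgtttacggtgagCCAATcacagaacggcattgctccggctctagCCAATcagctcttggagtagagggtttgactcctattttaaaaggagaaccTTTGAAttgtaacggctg
Plk1 (chr7:122159335-122159484, plus strand): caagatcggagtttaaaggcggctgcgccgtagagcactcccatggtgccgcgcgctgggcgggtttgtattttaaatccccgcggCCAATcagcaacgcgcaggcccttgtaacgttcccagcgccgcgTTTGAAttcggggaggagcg
Ccnb2 (chr9:70421505-70421654, minus strand): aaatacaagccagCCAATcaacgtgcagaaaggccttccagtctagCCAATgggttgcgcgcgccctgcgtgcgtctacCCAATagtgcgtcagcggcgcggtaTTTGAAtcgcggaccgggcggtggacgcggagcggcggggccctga
Cdk1 (chr10:69352863-69353012, minus strand): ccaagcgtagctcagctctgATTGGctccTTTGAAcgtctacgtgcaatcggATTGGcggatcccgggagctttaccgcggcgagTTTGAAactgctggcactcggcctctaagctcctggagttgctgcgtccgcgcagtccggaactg
Ccnb1 (chr13:100786437-100786586, minus strand): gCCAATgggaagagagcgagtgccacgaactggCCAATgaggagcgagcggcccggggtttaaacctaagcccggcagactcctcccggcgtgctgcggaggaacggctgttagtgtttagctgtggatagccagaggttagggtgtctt

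In the full 300 bases, from 250 before to 50 after the start, a CHR was found in 4 of the 5 promoters. It lay at positions 33 to 38 in Aurka, 31 to 36 in Plk1, 5 to 10 in Ccnb2 and -15 to -10 in Cdk1, counted from the start, with a second copy at -71 to -66 in Cdk1 and at -167 to -162 in Ccnb2. Ccnb1 held none of these letters. CCAAT boxes were found in all 5, with 2 in Aurka, 1 in Plk1, 3 in Ccnb2, 3 in Cdk1 (all reversed) and 2 in Ccnb1. Of 32851 promoters in the table, 19.2% held a CHR, 37.4% a CCAAT box and 7.52% both in the same 300 bases. The matches are a description of these windows. Aurkb, Ccna2, Pbk and Foxm1 are named only.

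In the 1430 cells, the 9 entries held 1163 UMIs in 479 cells, or 5.51 per 10000 UMIs, and the 8 members without Plk1 held 827 UMIs in 343 cells, or 3.92 per 10000. Cdk1 had 291 UMIs in 197 cells, Ccna2 19 in 16, Ccnb1 22 in 16 and Ccnb2 169 in 94 cells. Aurka had 65 UMIs in 50 cells, Aurkb 103 in 73, the Plk1 entry 336 in 244, Pbk 98 in 75 and the Foxm1 entry 60 in 51 cells. Most cells therefore had no UMI of a given member. The 106 wells without an index record, which held 25068 UMIs in all, gave 9 member UMIs, or 3.59 per 10000 (1.64 to 6.82), and 2.39 per 10000 (0.878 to 5.21) without Plk1. These wells held up to 502 UMIs each, against at least 511 in the recorded cells, and whether they were empty is not stated. Their rate rests on few UMIs, so it is a rough reference for the sums and no background for single members. Summed levels at or near it are not read as expression, and low levels of single members rest on few UMIs.

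The members were concentrated in map groups 9 and 10. Group 9 held 42.8% of the UMIs of the 8 members without Plk1, against 22.1% of all UMIs. Group 10 held 20.2%, against 3.68%, while group 8 held 15.4%, against 14.7%, close to its share of all UMIs. Together, groups 8, 9 and 10 held 78.4% of the UMIs of these 8 members, against 30.2% of the cells and 40.5% of all UMIs. Pbk was the most concentrated at 86.7%, followed by Ccna2 at 84.2%, Aurkb at 83.5%, Aurka at 78.5%, Ccnb2 at 76.9%, Foxm1 at 76.7%, Cdk1 at 74.9% and Ccnb1 at 72.7%. The Plk1 entry stood apart from them, with 52.1% of its UMIs in these groups. Other lists differed too: 6 HSC markers summed to 6.49 per 10000 in groups 8 to 10 (plates 5.34 to 8.00) and 11.8 in groups 2 to 7 (10.1 to 12.9), and 8 myeloid markers to 9.62 (8.51 to 10.7) and 14.9 (14.3 to 15.7). Their part in the member levels was not tested.

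For the 8 members without Plk1, group 10 had 12.1, 15.9, 25.2 and 31.9 UMIs per 10000 in plates 2, 3, 4 and 5. The corresponding values were 4.37, 7.29, 8.69 and 11.2 in group 9 and 0.699, 3.17, 5.30 and 5.10 in group 8. Groups 10 and 9 did not overlap between plates, while groups 9 and 8 did, plate 2 of group 9 lying below plates 4 and 5 of group 8. Groups 2, 3, 4, 5 and 7 lay at 1.03 to 1.65 per 10000 with plates pooled, and their plates overlapped. These levels were inside the counting interval of the wells without a record (0.878 to 5.21). So were the pooled levels of group 8, at 4.09, and of group 6, so neither group is set apart from those wells. Group 6 had 3.74 per 10000 in 33 cells, but 12 of its 14 UMIs came from the 5 cells of plate 3, and 1 cell of that plate held 5 of them. By pooled level the order was 10, 9 and 8, followed by group 6 and the rest. Of these neighbours 10 stood apart from 9, while 8 overlapped with 9 and with 6 between plates, and its plate 2 lay below every plate of group 2.

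**Figure D1:**
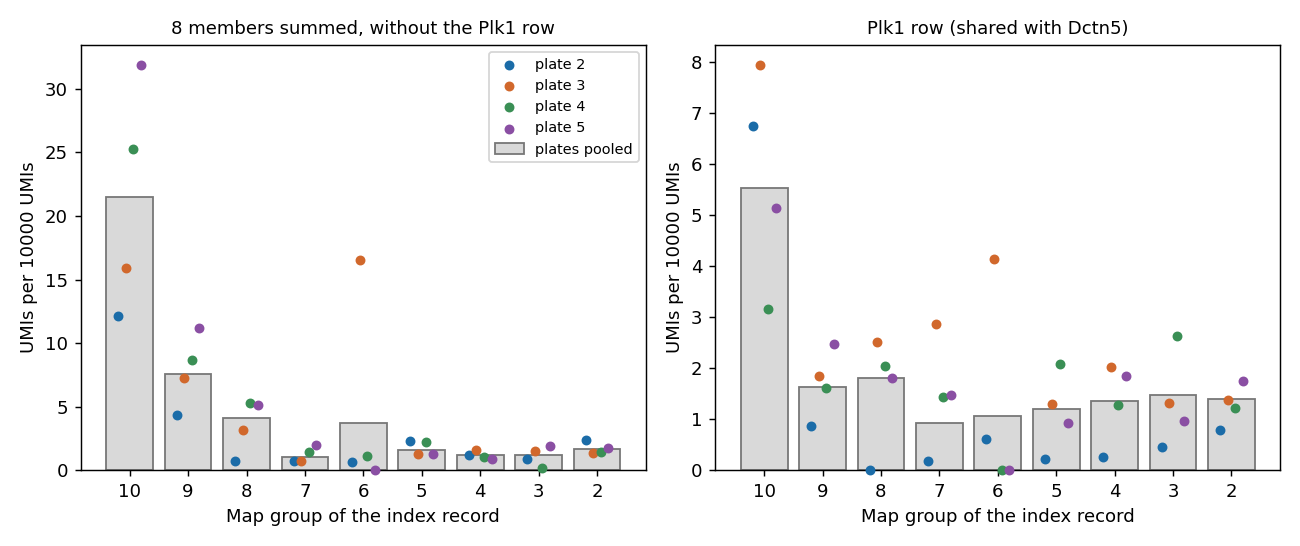
UMIs per 10000 UMIs in map groups 10 to 2 for the 8 members without Plk1 (left) and for the Plk1 entry (right); bars pool the plates and points are the 4 sort plates. The 8 members reach 21.5 per 10000 in group 10, 7.59 in group 9 and 4.09 in group 8, while the Plk1 entry is at 5.53 in group 10 and at 0.929 to 1.80 in groups 2 to 9.

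Single members followed this order in part. Cdk1, the kinase partner of the mitotic cyclins, was at 4.25, 2.60 and 2.06 per 10000 in groups 10, 9 and 8 and at 0.413 to 0.718 in groups 2 to 7, with the plates of groups 10, 9 and 8 overlapping. Foxm1, an activator of genes of G2 and mitosis, was at 1.03, 0.686 and 0.193 in groups 10, 9 and 8. Its plates did not overlap between groups 9 and 8. Aurkb, the kinase of the chromosomal passenger complex, was at 2.57, 1.22 and 0.290 in the same 3 groups, with plates of neighbouring groups overlapping. The Plk1 entry was at 5.53 in group 10 and between 0.929 and 1.80 in all of groups 2 to 9. In plate 2 the Plk1 entry had 0 UMIs in group 8, against 1.81 to 2.51 per 10000 in the other plates.

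Group 10 (42 cells) was set against group 9 (188 cells) in more detail. Over all 9 members, group 10 had 18.9, 23.8, 28.4 and 37.0 UMIs per 10000 in plates 2, 3, 4 and 5, against 5.23, 9.13, 10.3 and 13.7 in group 9. The groups did not overlap, and the pooled ratio was 2.93 (2.47 to 3.46), or 2.83 (2.34 to 3.41) without Plk1. Group 10 cells were shallower, with a median of 1459 UMIs, against 2340.5 in group 9. At equal depth, 1000 UMIs a cell, group 10 had 3.13 member UMIs per cell (30 cells), against 0.820 in group 9 (178 cells).

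Summed HSC markers (Kit, Ly6a and Slamf1 of the gate, with Procr, Mecom and Hlf) were at 8.75 per 10000 in group 10 (plates 6.76 to 10.3) and 6.33 in group 9 (4.76 to 7.55), and erythroid markers at 38.6 (27.4 to 46.4) and 29.0 (21.1 to 37.1); their part in the result was not tested.

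The members differed in this ratio. Ccnb2, 1 of the 2 mitotic B cyclins, had 4.49, 2.17, 10.8 and 11.3 UMIs per 10000 in group 10 of plates 2, 3, 4 and 5, against 0.463, 0.972, 0.909 and 2.21 in group 9. It was higher in group 10 on each plate, with a pooled ratio of 6.94 (4.69 to 10.3); the lowest plate of group 10 lay just under the highest plate of group 9. Aurka, which acts at centrosomes and spindle poles, had 1.35, 5.06, 3.16 and 3.09 in group 10, against 0.463, 0.389, 0.404 and 0.265 in group 9. Its plates did not overlap, and the ratio was 7.67 (3.96 to 15.1). The Plk1 entry did not overlap either, at a ratio of 3.39 (2.28 to 5.00). Ccnb1 had 8 UMIs in group 10, 6 of them in plate 4, against 3 in group 9, a ratio of 16.0 (3.84 to 93.6). It was higher in group 10 on 2 of 4 plates, and its plates overlapped. Ccna2, the A cyclin of S and G2 phase, had 6 and 10 UMIs, a ratio of 3.60 (1.08 to 10.9).

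The remaining members had lower ratios. Pbk, a mitotic serine/threonine kinase, had 1.80, 1.45, 0.902 and 1.03 UMIs per 10000 in group 10, against 1.06, 1.07, 1.62 and 1.68 in group 9. Its plates overlapped and 2 of 4 were higher in group 10, with a ratio of 0.968 (0.442 to 1.90). At equal depth the direction turned, with 0.167 Pbk UMIs per cell in group 10 and 0.107 in group 9. These rest on 5 of 30 cells with a Pbk UMI (16.7%, 5.64 to 34.7) and 17 of 178 (9.55%, 5.66 to 14.9). The intervals overlap, so the direction for Pbk is not settled. Foxm1 had a ratio of 1.50 (0.597 to 3.32). Cdk1 had a ratio of 1.64 (1.08 to 2.42) and was higher in group 10 on 4 of 4 plates, and Aurkb had a ratio of 2.11 (1.20 to 3.56) and was higher on 3 of 4, each with overlapping plate ranges. At equal depth Aurkb had 0.367 UMIs per cell in group 10 and 0.0955 in group 9. The make-up of the member UMIs differed accordingly. Ccnb2 gave 28.1% of the member UMIs in group 10 (22.1 to 34.7), against 11.9% in group 9 (8.96 to 15.3). Pbk gave 4.76% in group 10 (2.31 to 8.58), against 14.4% in group 9 (11.2 to 18.1), and Cdk1 15.7% (11.1 to 21.4), against 28.1% (23.9 to 32.6).

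**Figure D2:**
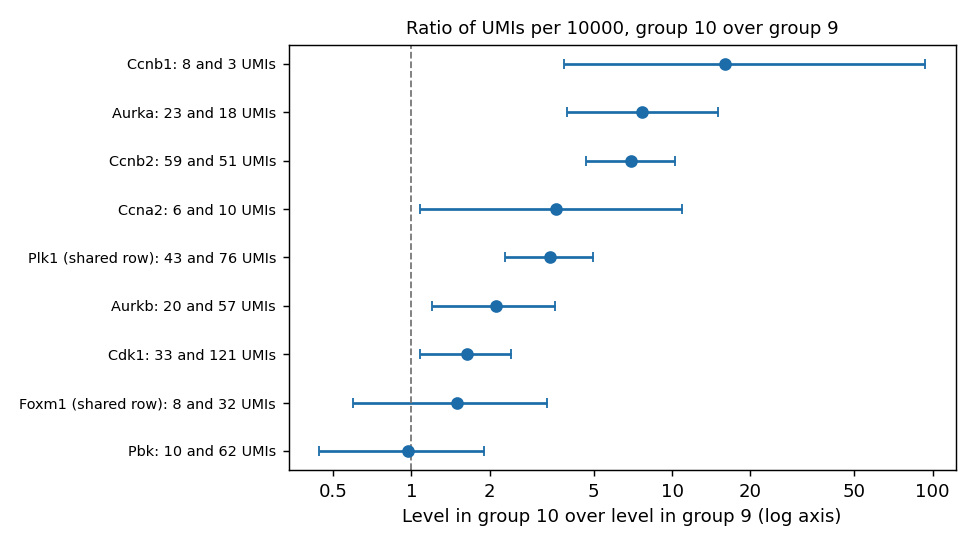
Ratio of the level in map group 10 over that in map group 9 for each member (log axis; points pool the plates, bars are 95% exact counting intervals, and UMIs of group 10 and group 9 follow each name). Ccnb1, Aurka and Ccnb2 have the highest ratios, at 16.0, 7.67 and 6.94, and Pbk the lowest, at 0.968. The Ccnb1 ratio rests on 8 and 3 UMIs and was higher in group 10 on 2 of 4 plates.

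The next comparison asked how the members varied with reporter brightness, in 1 edgeR fit over all genes. Cdk1, Ccnb2, Aurka, Aurkb, Pbk and Foxm1 were all at a higher level in bright cells than in dim ones, 6 of the 7 members that passed the filter on low counts. Over all 4652 tested genes, 5.61% were higher in bright cells and 3.44% lower, and no member was lower. Ccna2 and Ccnb1 were filtered out and Plk1 did not pass, so the 6 are not all members. A filter on low values keeps a sparse gene more readily when 1 fraction is high, and sums over cells do not separate more cells with a transcript from more transcripts per cell. The members had a median log2 fold change of 2.74, against -0.03 over all tested genes.

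Among the cyclins and their kinase, Cdk1 had 0.884, 2.12, 3.38 and 3.92 UMIs per 10000 in bright cells of plates 2, 3, 4 and 5, against 0.249, 0.587, 0.655 and 0.769 in dim cells. Bright and dim plates did not overlap, although bright cells of plate 2 lay close to the highest dim value. The log2 fold change was 2.15 ± 0.32 (SE; edgeR quasi-likelihood test, adjusted p = 1.61e-08). Ccnb2 had 0.811, 0.729, 2.36 and 2.34 in bright cells, against 0.621, 0.352, 0.393 and 0.385 in dim cells. The bright values of plates 4 and 5 were well above the rest, and those of plates 2 and 3 just above the dim ones. Its log2 fold change was 1.76 ± 0.39 (edgeR adjusted p = 0.000423), and this p became 0.0592 when plate 5 was left out and 0.0503 without the plate block. Ccna2 had 11 UMIs in bright cells, in all 4 plates, and 0 in dim cells. With a floor of 3 counts for the dim fraction its levels differed 1.91-fold, and the exact lower bound of the ratio was 1.31. Ccnb1 had 15 and 2 UMIs, 11 of the 15 in plate 4, and its plates overlapped.

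The Aurora kinases were low in dim cells of each plate. Aurka had 0.590, 0.729, 0.638 and 0.702 UMIs per 10000 in bright cells, against 0.124, 0.117, 0 and 0 in dim cells. The bright values were close to each other and above all dim values. The log2 fold change was 3.27 ± 0.85 (edgeR adjusted p = 0.00333), and with 2 UMIs in dim cells the ratio of levels was 10.7 (2.77 to 91.2). Without plate 3 or plate 5 it no longer passed the filter. Aurkb had 0.737, 1.52, 1.21 and 1.52 in bright cells, against 0, 0.117, 0.262 and 0.256 in dim cells, again without overlap. Its log2 fold change was 2.93 ± 0.56 (edgeR adjusted p = 2.05e-05).

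Pbk and Foxm1 behaved likewise. Pbk had 1.03, 0.928, 1.34 and 1.29 UMIs per 10000 in bright cells, against 0.124, 0, 0 and 0.128 in dim cells. Its log2 fold change was 4.04 ± 0.70 (edgeR adjusted p = 1.97e-06), from 71 and 2 UMIs, a ratio of 18.5 (4.94 to 156). The size depended on the cells taken, at 3.19 ± 0.61 in cells of at least 1000 UMIs and 2.45 ± 0.48 with fractions of 30%, and the call held in both. The Foxm1 entry had 0.737, 0.464, 0.638 and 0.819 in bright cells, against 0.373, 0, 0 and 0 in dim cells. All 3 of its dim UMIs were in plate 2, and the fractions did not overlap. Its log2 fold change was 2.74 ± 0.79 (edgeR adjusted p = 0.0116). The call was lost without plate 3 (0.057), plate 4 (0.0755) or the plate block (0.0784) and with fractions of 30% (0.0569), and without plate 2 or plate 5 the entry did not pass the filter.

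The Plk1 entry had 1.25, 2.85, 1.72 and 2.93 UMIs per 10000 in bright cells, against 0.249, 1.17, 2.36 and 1.54 in dim cells. Plate 4 ran the other way from the other 3, and the fractions overlapped. The log2 fold change of 0.73 ± 0.27 did not pass the threshold (edgeR adjusted p = 0.0665), but it did without plate 4, at 1.25 ± 0.32 (adjusted p = 0.00541), in cells of at least 1000 UMIs, at 0.94 ± 0.29 (adjusted p = 0.021), and without the filter on low counts, at 0.86 ± 0.27 (adjusted p = 0.0448). How much of this entry is Dctn5 cannot be told from the table.

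Summed over the 8 members without Plk1, bright cells had 5.01, 6.70, 10.6 and 10.8 UMIs per 10000 in plates 2, 3, 4 and 5, against 1.49, 1.29, 1.44 and 1.54 in dim cells. The dim plates were nearly level and inside the counting interval of the wells without a record, as was plate 2 of the bright cells. The bright plates spread over a wider range and all lay above the dim ones. The ratio was 5.89 (4.35 to 8.15), from 520 UMIs in bright and 46 in dim cells. Most of the calls could not be tested without groups 9 and 10. When their cells were left out, an alternative chosen after seeing the data, only Cdk1 and Plk1 passed the filter and neither was called, at log2 fold changes of 1.60 ± 0.47 (edgeR adjusted p = 0.0637) and 0.20 ± 0.36 (adjusted p = 0.866).

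**Figure D3:**
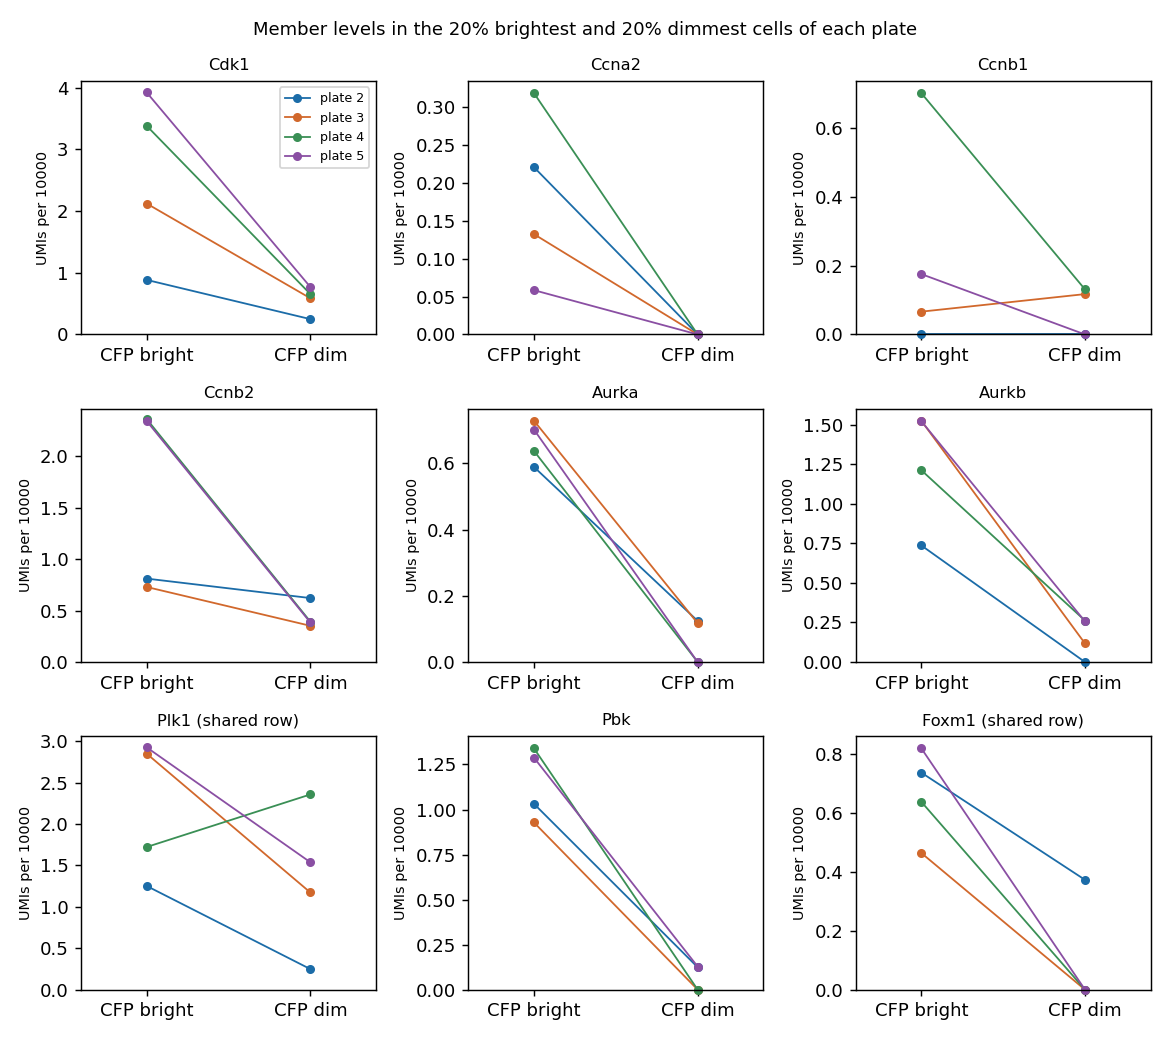
UMIs per 10000 UMIs of each member in the CFP bright and CFP dim cells of each sort plate, with a line joining the fractions of a plate. In 7 of the 9 panels every bright value is above every dim value; Plk1 and Ccnb1 are the exceptions.

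Between the brightest fraction and the middle one the separation was of the same kind. Against intermediate cells, all 7 tested members were higher in bright cells, where 5.42% of the tested genes were higher. The log2 fold changes ran from 0.72 ± 0.20 for the Plk1 entry (edgeR adjusted p = 0.00679) to 2.84 ± 0.39 for Aurkb (adjusted p = 2.87e-10). The Plk1 call was lost without plate 3 (0.058), plate 5 (0.348) or the plate block (0.556) and in DESeq2 (0.263). In intermediate against dim cells, edgeR called 0 of the 7 members and 0.0215% of all tested genes; no member had an unadjusted p under 0.05, and DESeq2 called 0 of 9. Cdk1 came closest, with a log2 fold change of 0.70 ± 0.37 (edgeR adjusted p = 0.701).

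Across CFP quintiles within a plate, from dimmest to brightest, the 8 members without Plk1 had 1.43, 1.88, 1.87, 2.82 and 8.50 UMIs per 10000. The brightest quintile thus held most of the difference, and the first 4 lay near the wells without a record. In that quintile the plates ran from 5.01 to 11.0, and in the other 4 from 1.05 to 4.53. Cdk1 had 0.559, 0.498, 0.778, 1.42 and 2.68, so its pooled level was also above the lower 3 in the quintile next to the brightest. In plate 2 that quintile was the highest, and the brightest was at 0.884. In plate 3 that quintile was at 0.833, below quintiles 2 and 3, at 0.993 and 1.09. Pbk had 0.0621, 0.221, 0.156, 0.256 and 1.16, Aurkb 0.155, 0.111, 0.233, 0.163 and 1.28, and Ccnb2 0.435, 0.581, 0.389, 0.466 and 1.62, with no such step in the pooled level before the brightest. The Plk1 entry had 1.30, 1.61, 1.37, 1.07 and 2.24.

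**Figure D4:**
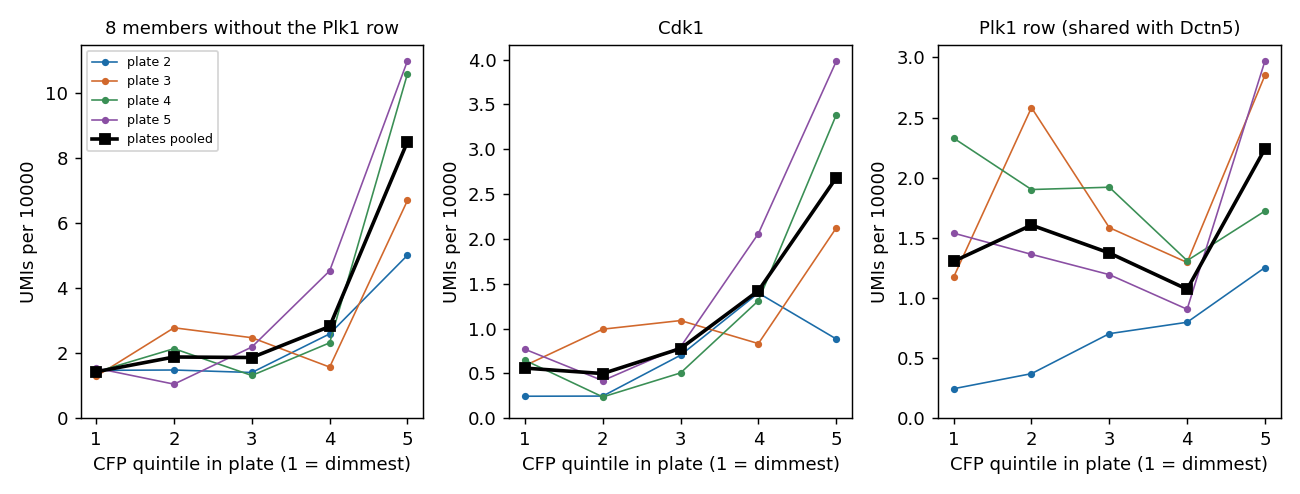
UMIs per 10000 UMIs by CFP quintile within a plate (1 dimmest, 5 brightest) for the 8 members without Plk1, Cdk1 and the Plk1 entry; thin lines are the 4 plates and the thick line pools them. The 8 members stay between 1.43 and 2.82 in the lower 4 quintiles and reach 8.50 in the brightest.

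Brightness and map group went together, since 52.4% of group 10, 56.9% of group 9 and 30.7% of group 8 cells were CFP bright, against 7.10% to 18.2% of groups 2 to 7. The levels of the 8 members without Plk1 also ran with brightness inside a group. In group 8 they were at 7.30, 2.39 and 0.568 UMIs per 10000 in bright, intermediate and dim cells (62, 126 and 14 cells), and in group 10 at 24.8, 17.7 and 4.51 (22, 15 and 5 cells). In group 9 they were at 9.35, 4.07 and 5.30 (107, 73 and 8 cells). The dim cells of groups 8, 9 and 10 held 1, 7 and 2 of these UMIs, too few to place them.

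The cells of groups 8 to 10 were therefore split at their own median CFP within each plate, and the brighter were compared with the dimmer. Cells of groups 2 to 7 were split and compared in the same way. Each set had its own cut, so brighter can mean a different CFP level in each. Inside groups 8 to 10, Aurkb, Cdk1 and Pbk were higher in the brighter cells, 3 of the 5 members that passed the filter, where 1.43% of the 3151 tested genes were higher. Aurkb had 0.822, 1.79, 1.46 and 1.88 UMIs per 10000 in the brighter cells of plates 2, 3, 4 and 5, against 0, 0.398, 0.224 and 0.450 in the dimmer cells. It did not overlap between the sets, with a log2 fold change of 2.42 ± 0.45 (edgeR adjusted p = 0.000169). Cdk1 changed by 1.11 ± 0.24 (adjusted p = 0.00198) and Pbk by 1.80 ± 0.42 (adjusted p = 0.00539), each higher in 4 of 4 plates. When plate 4 was left out the adjusted p was 0.0658 for Cdk1 and 0.174 for Pbk, and when plate 5 was left out it was 0.0707 and 0.07. In DESeq2 it was 0.273 for Cdk1 and 0.276 for Pbk. Without the plate block none of the 3 passed, with adjusted p-values of 0.102 for Aurkb, 0.788 for Cdk1 and 0.149 for Pbk. Ccnb2, at 0.68 ± 0.31 (adjusted p = 0.427), and Plk1, at 0.80 ± 0.27 (adjusted p = 0.12), did not pass.

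The brighter cells of groups 8 to 10 held more of group 9 (54.8%, against 32.1% of the dimmer cells) and slightly more of group 10 (11.5%, against 7.91%). They were also deeper, with a median of 2192 UMIs, against 1434. The part of these differences in the result was not tested. Inside groups 2 to 7, 0 of 4304 genes passed in edgeR and 0 of 12618 in DESeq2. An unadjusted p under 0.05 was found for 224 of them in edgeR and 19 in DESeq2, where about 1 in 20 would have one with no difference. Only Cdk1 and Plk1 passed the edgeR filter in groups 2 to 7, at log2 fold changes of 0.27 ± 0.40 and -0.18 ± 0.25. The CFP effect itself, in groups 8 to 10 minus groups 2 to 7, was tested for 7 members in 1 edgeR fit added after these values were seen, and none passed, where 0.554% of 4509 genes did in either direction. The difference was 0.99 ± 0.37 for Plk1 (adjusted p = 0.354), 2.90 ± 1.17 for Foxm1 (adjusted p = 0.483), 2.32 ± 1.00 for Aurkb (adjusted p = 0.562) and 0.85 ± 0.45 for Cdk1 (adjusted p = 0.729).

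Depth was then held equal. In the 1025 cells with at least 1000 UMIs, each thinned to 1000 UMIs, bright cells had 10.6 ± 2.86 member UMIs per 10000 and dim cells 2.68 ± 1.02 (mean ± SD over 4 plates), with the fractions taken again among these cells. The difference was 7.94 ± 2.30, from 5.82 to 11.1, and was positive in 4 of 4 plates. Without the Plk1 entry, bright cells had 8.15 ± 2.46 and dim cells 1.32 ± 0.39. A UMI of at least 1 of these 8 members was seen in 86 of 205 bright cells (42.0%, 35.1 to 49.0) and in 24 of 205 dim cells (11.7%, 7.65 to 16.9). Before thinning the shares were 50.3% of 286 bright and 13.3% of 286 dim cells, against 5.66% of the wells without a record, whose median depth was 224 UMIs.

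Thinned cells of group 10 often held several members at once. Of 30 such cells in group 10, 86.7% had a UMI of at least 1 of the 8 members without Plk1 and 60.0% of at least 2. In group 9 the shares were 38.8% and 12.4% of 178 cells, in group 8 they were 24.4% and 3.66% of 164 cells, and in groups 2 to 5 and 7 they were at most 14.4% and 3.74%. Group 6, with 18 thinned cells, had 16.7% and 5.56%. Over all thinned cells, Aurkb and Cdk1 were seen together in 12 cells, where the product of their shares gives 3.68. Cdk1 and Ccnb2 were together in 13 cells (product 6.28), Aurka and Ccnb2 in 6 (1.36) and Aurkb and Pbk in 6 (1.16). Ccnb2 and Foxm1 shared 0 cells (product 0.792). The cell richest in members in group 10 held 21 UMIs of 6 members among 3766 UMIs, and that of group 9 held 21 UMIs of 6 members among 5655, both CFP bright. The co-detection counts pool groups and plates that differ in level, and they describe the thinned cells without a test.

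The index record also allowed scatter and CFP ranks to be set beside the members. Cells with a UMI of the 8 members without Plk1 had a mean rank of 63.5 ± 2.22 in forward scatter width (percentile within a plate, mean ± SD over plates, 215 cells), against 46.5 ± 1.34 for the 810 cells without. They also ranked higher in CFP, at 63.4 ± 3.36 against 46.5 ± 1.59, and in side scatter area, at 60.1 ± 3.61 against 47.5 ± 1.25, each in 4 of 4 plates. In forward scatter area they did not stand apart, at 50.7 ± 4.15 against 49.9 ± 0.994. Their UMI totals before thinning ranked higher as well, at 62.6 ± 2.63 against 46.8 ± 1.36, so that depth and scatter moved with the members, and their part in the result was not tested.

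The members ranged widely in forward scatter width. Cells with an Aurkb UMI (34 cells) ranked at 82.7 ± 8.25 and cells with a Pbk UMI (35 cells) at 78.3 ± 7.85. Cells with Aurka were at 71.3 ± 8.31 (24 cells), with Ccnb2 at 63.3 ± 6.34 (58 cells), with Cdk1 at 62.9 ± 2.75 (111 cells) and with the Plk1 entry at 54.4 ± 5.89 (129 cells). Cells without each of these members averaged 48.6 to 49.8. Inside groups 8 to 10, cells with a UMI of the 8 members again ranked higher in width, at 64.0 ± 2.85 against 42.5 ± 3.84 (135 and 237 cells), and in CFP, at 61.1 ± 2.13 against 44.0 ± 2.95.

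**Figure D5:**
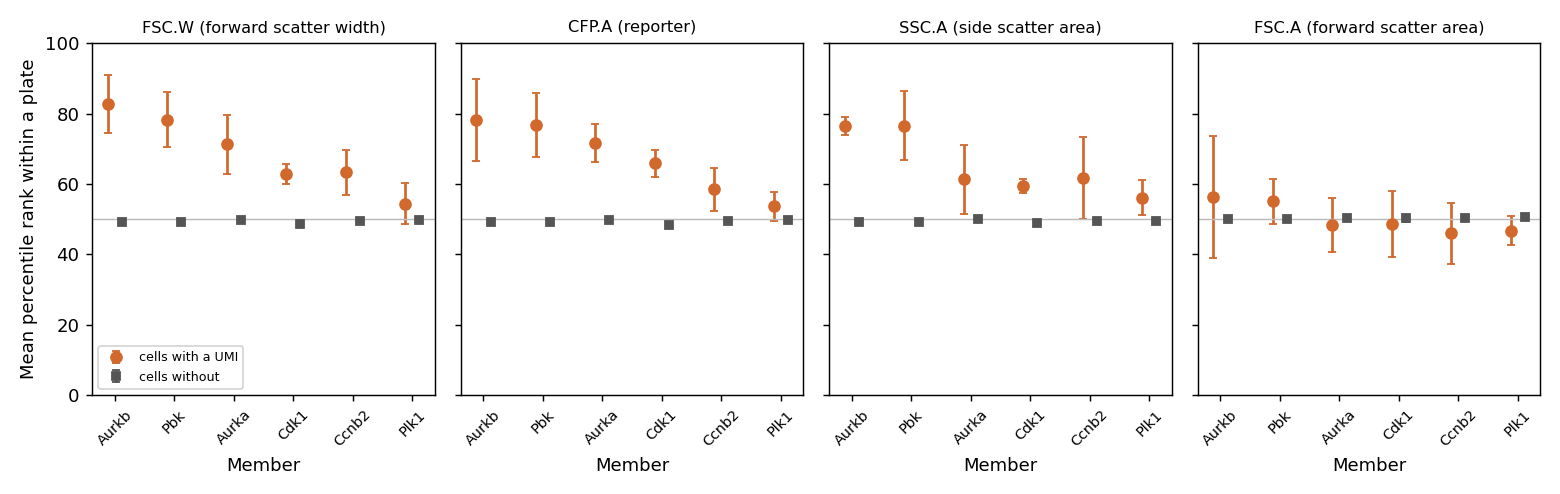
Mean percentile rank within a plate of thinned cells with a UMI of a member (orange circles) and without (grey squares) in forward scatter width, CFP, side scatter area and forward scatter area; error bars are the SD over 4 plates. Cells with an Aurkb or Pbk UMI sit near 80 in width, at 82.7 and 78.3, while in forward scatter area all 6 members lie between 46.0 and 56.3.

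Several partners of these kinases and cyclins were also higher in bright cells. Of 40 listed partners, 39 were in the table and 23 were tested, of which 11 were higher in bright than in dim cells and 0 lower, where 5.61% of all tested genes were higher and 3.44% lower. Their median log2 fold change was 0.97, against -0.03 over all tested genes. The 3 partners of Aurkb in the chromosomal passenger complex were all higher: Birc5 (survivin) by 2.52 ± 0.37, Cdca8 (borealin) by 2.28 ± 0.31 and Incenp by 1.75 ± 0.42. Tpx2, which activates Aurora A on the spindle, was higher by 1.87 ± 0.44. Ube2c, the ubiquitin-conjugating enzyme of the anaphase-promoting complex, was higher by 2.51 ± 0.29 and the complex's subunit Anapc5 by 0.87 ± 0.16, while its subunits Anapc11 and Anapc13 did not pass, at 0.03 ± 0.18 and 0.02 ± 0.19. The checkpoint kinase Bub1b was higher by 1.69 ± 0.37, the kinetochore protein Cenpf by 1.71 ± 0.41 and Cks1b, which binds cyclin-dependent kinases, by 1.67 ± 0.28.

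Regulators of Cdk1 phosphorylation were sparse. Cdc25b, a phosphatase that activates Cdk1, was higher by 2.46 ± 0.82 (edgeR adjusted p = 0.035), and the entry of Pkmyt1, an inhibitory kinase of Cdk1 whose entry also carries the name Myt1, by 4.15 ± 0.97 (adjusted p = 0.000789). Cdc25a, of the same phosphatase family as Cdc25b, did not pass, at 0.85 ± 0.49 (adjusted p = 0.323). Cdc20, the activator of the anaphase-promoting complex, had a log2 fold change of 1.41 ± 0.56 and did not pass (adjusted p = 0.102), and neither did Pttg1 (securin), at -0.89 ± 0.72, or the inhibitory kinase Wee1, at 0.47 ± 0.44. Inside groups 8 to 10, 6 of 21 tested partners were higher in the brighter cells, where 1.43% of all tested genes were: Birc5, Bub1b, Cdca8, Cenpf, Incenp and Ube2c.

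The cyclins and kinases of G1 and S phase did not move as 1 group. Of 10 listed, 5 were tested in bright against dim cells: Cdk4, the partner of the D cyclins, was higher by 0.56 ± 0.12 (edgeR adjusted p = 0.000254), and the Ccnd2 entry, which carries a second name, was lower at -0.48 ± 0.13 (adjusted p = 0.00581). Cdk2, Ccnh and Cdk7 did not pass, at 0.83 ± 0.49, 0.80 ± 0.34 and -0.56 ± 0.40. Of 5 CDK inhibitors only Cdkn1c was tested, at 0.56 ± 0.53 (adjusted p = 0.605).

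The genes whose levels over map groups 2 to 10 were most like the summed members were Birc5 (Pearson r = 0.987), the shared H2afv and H2afz entry (0.985), Cdca8 (0.972), Bub1b (0.971) and Nde1 (0.969), of 4233 genes ranked on log2 levels with plates pooled. The 9 points share libraries and depth and are dominated by group 10, so r is a description. Without the Plk1 entry in the sum, r was 0.979 for H2afv and H2afz, 0.971 for Birc5 and Bub1b, 0.97 for Cdca8 and 0.961 for Nde1, so their order is not settled. Birc5 had 6.95, 2.17 and 0.772 UMIs per 10000 in groups 10, 9 and 8, and Cdca8 8.49, 2.75 and 0.772. In bright against dim cells, 4 of these 5 were higher in the fit over all genes, where 5.61% of the tested genes were. Nde1, at 0.53 ± 0.29, did not pass (edgeR adjusted p = 0.282). The 5 were picked in these same cells for levels like those of the members, so this count adds no separate support.

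Markers of other cells differed between the fractions as follows, and their part in the member results was not tested. Of 10 erythroid markers, 6 were in the table, and their summed level was 38.3 per 10000 in bright cells (plates 22.8 to 46.1) and 44.4 in dim cells (29.7 to 76.9). The 8 myeloid markers summed to 10.2 (9.72 to 11.0) and 15.2 (13.1 to 16.9), and the 6 HSC markers to 7.25 (6.00 to 9.43) and 11.9 (9.69 to 13.5). The 4 megakaryocyte markers summed to 4.41 (3.02 to 5.91) and 3.22 (1.99 to 4.32). Of 8 lymphoid markers, 7 were in the table, with sums of 1.58 (1.03 to 2.06) and 1.53 (0.822 to 1.96) and with Cd79a, Cd3e and Cd3g at 0, and of 3 mast cell and basophil markers Mcpt8 and Gzmb were at 0.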

How the data were processed

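Each HSC was sorted into its own well holding barcoded primers, per the labels' protocols. The authors deposited UMI counts per gene entry and well, not normalized, for 1536 wells, and an index record of 1430 wells. The deposited CFP value is the log10 of a channel number, per the values, and the deposited scatter channels were treated as a score; all were used as ranks within a plate. The map number was used as deposited. The submitters' processing notes name bcl2fastq 2.15.0.4, Bismark 0.19.0, STAR, cutadapt, DESeq2, featureCounts and the builds mm9 and mm10, without saying which served the UMI table. How reads became UMIs, and whether strand was used, is not stated in the sources used. Bulk and bisulphite samples were not analysed here.

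A minimum of 500 UMIs removed none of the 1430 recorded cells. No doublet caller was run. The sort was of 1 cell per well, which is no check for doublets, and 0 well identifiers were repeated. Cells with a member UMI ranked higher in forward scatter width and UMI totals, and the part of doublets in this was not tested. UMIs were summed per plate and CFP fraction and tested with edgeR 4.0.16 in R 4.3.3 (plate block, TMM scaling, filterByExpr, quasi-likelihood test; adjusted p under 0.05 by Benjamini-Hochberg over all tested genes). The SE is the log2 fold change divided by the root of F. Residual degrees of freedom were 6, with 276.4 from the prior, so small p-values borrow from all genes; within groups 8 to 10 they were 3 and 57.7. A plate number marks cells sorted on 1 plate, which is where the pairing comes from. With no map to animals, the table can also be read as 1 sample, under which the levels stand and the tests do not. On simulated counts for bright against dim cells (4652 genes), 44% of changes of 1 and 84% of changes of 2 on the log2 scale were recovered, and 0.135% of unchanged genes were called. The simulation had 1 dispersion for all genes and no plate effect, and changes fell on genes of any level. Its rates need not hold for sparse members or for plates that differ. Thinning drew 1000 UMIs per cell without replacement. Promoters come from RefSeq (GRCm38.p6).

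The members, lists and tests were chosen with earlier results of these data known, and nothing here is independent support. All 9 members are named, partners and other lists are counted and named where they pass, and the 5 most alike genes are those of at least 100 UMIs with the highest correlation with the summed members. Per the labels' protocols the cDNA of many wells was pooled and amplified together, and UMIs collapse copies of 1 molecule. DESeq2 1.42.0, other size factors, no filter, no block, other depths and fractions, and leaving out each plate were tried as alternatives. The test of the difference in CFP effect, the fit without groups 9 and 10 and the sums without Plk1 were chosen after seeing the data.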

Additional observations from a re-analysis of the deposited data

Results flagged for a closer look

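Member UMIs also appeared in wells outside the comparisons. The 106 wells without an index record held 9 member UMIs among 25068, above the 3 UMIs that a count of 0 would allow: 3 of the Plk1 entry, 3 of Ccnb2, 2 of Pbk and 1 of Ccnb1, each in a well of its own. Cdk1, Aurka, Aurkb, Ccna2 and Foxm1 had 0 there. No plate stood apart by Dixon's test in 32 sets of 4 plate values (members or sums with at least 20 UMIs, in bright and dim cells and in groups 8, 9 and 10), where chance flags about 1 in 20.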

How the results depend on the processing

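Dim libraries were the shallowest (76354 to 85201 UMIs), and Aurka, Ccna2, Ccnb1 and Foxm1 had 0 to 3 UMIs in them. For bright against dim, 421 genes passed, against 125 without the replicate block, 179 in DESeq2, 257 to 368 without 1 plate, 138 in thinned cells (fewer genes tested) and 39 without the cells of groups 9 and 10, chosen after seeing the data. Of the members 6 of 7 tested passed, against 4 of 7 without the block, 4 of 5 in DESeq2, 3 to 6 without 1 plate, 1 of 2 in thinned cells, 4 of 5 with fractions of 10%, 5 of 7 with fractions of 30% and 0 of 2 without groups 9 and 10, where Cdk1 had a log2 fold change of 1.60 ± 0.47 (edgeR adjusted p = 0.0637). Against intermediate, 408 genes passed, against 85 without the block, 125 in DESeq2 and 237 to 331 without 1 plate. For intermediate against dim, 1 gene passed, against 0 without the block and 1 to 3 without 1 plate. Within groups 8 to 10, 67 passed, against 6 without the block, 24 in DESeq2 and 34 to 58 without 1 plate, and the members called fell to 0 of 5 without the block, 1 of 7 in DESeq2 and 1 of 5 without plate 4 or plate 5. Within groups 2 to 7 the count was 0 throughout. The sign of some values that were not called turned without 1 plate. Without 1 plate, the log2 fold change of intermediate against dim was -0.22 to 0.60 for Aurkb (-0.077 without plate 2), -0.24 to 0.32 for Plk1 (-0.10 without plate 2) and -0.066 to 0.46 for Ccnb2. Within groups 2 to 7 it was -0.27 to 0.10 for Plk1 and -0.089 to 0.69 for Cdk1. The difference of the CFP effect was -0.11 to 1.97 for Aurka, against 1.00, and -0.65 to 1.60 for Ccnb2, against 0.62. Thinned to 500 UMIs, 29.7% of bright and 12.2% of dim cells had a member UMI, against 46.3% and 22.0% at 1000 UMIs; without the Plk1 row 11.7% of dim cells did. Without 1 plate these shares were 43.0% to 50.3% and 19.5% to 25.8%. The summed difference was 6.89 to 8.65 UMIs per 10000 without 1 plate. The ratio of group 10 over group 9 was 3.82 at equal depth, against 2.93, and 2.72 to 3.04 without 1 plate. Where a value moved, the cause was not tested.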
